A study of Mus musculus with 8 samples.

Results

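Id1, Id2, Id3 and Id4 encode the inhibitors of DNA binding, and all 4 genes had SMAD4 peaks within 100 kb of the gene body in MS1 endothelial cells, both after BMP9/10 and without added ligand. The peaks described here are those of the 2 deposited lists whose summit, the position of highest coverage, lay inside or within 100 kb of the body of a member gene (RefSeq, mm10). After BMP9/10 there were 19 such peaks among 4333, and without ligand 11 among 1133. A member was the nearest protein-coding gene for 13 of the 19 and for 10 of the 11.

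MS1 is an established mouse endothelial line from pancreatic islets. All cells were starved of serum for 24 h. Stimulated cells then received recombinant BMP9/10 at 1 ng/mL, and unstimulated cells fresh medium. How long the cells were exposed is not given in the labels. SMAD4-bound DNA from each condition was sequenced in 2 immunoprecipitated (IP) libraries with 2 input libraries, 8 samples in 4 groups. In the titles of the IP libraries made after BMP9/10 stand the unexplained letters KD, while their descriptions give SMAD4-bound DNA from stimulated cells, and the groups follow the descriptions. The libraries of a condition were merged before peaks were called, which left 41044888 IP tags after BMP9/10 and 52971023 without ligand. No value per library was analysed here, no difference between the conditions has a replicate check, and the identity of the cells could not be checked against marker expression in DNA libraries.

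ID proteins have the helix-loop-helix surface of the basic helix-loop-helix (bHLH) transcription factors but lack the basic stretch that grips DNA. They pair with E proteins, the common partners of that family, and keep them off their E-box sites. The Id genes are among the best known direct targets of BMP signalling. In endothelium BMP9 and BMP10 act through the receptor ALK1, the receptor phosphorylates SMAD1, SMAD5 and SMAD9, and these enter the nucleus with SMAD4, the shared subunit. SMAD complexes contact short GTCT elements (CAGAC on the other strand carries the same core) and, in BMP targets, GC-rich elements such as GGCGCC.

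RefSeq promoter sequences (GRCm38.p6, the assembly behind mm10) were matched for 3 of the 4 members, Id2, Id3 and Id4. They are shown because peaks lie on both sides of the Id3 window and upstream of the Id2 window, while the only peak of Id4 lies far from its promoter. Each runs 5′ to 3′ on the strand of the gene, 250 bases before to 50 after the start, with capitals marking GTCT or CAGAC or GGCGCC or GGAGCC on either strand. The windows are chr12:25096043-25096342 (minus strand) for Id2, chr4:136143572-136143871 (plus strand) for Id3 and chr13:48260866-48261165 (plus strand) for Id4.
Id2: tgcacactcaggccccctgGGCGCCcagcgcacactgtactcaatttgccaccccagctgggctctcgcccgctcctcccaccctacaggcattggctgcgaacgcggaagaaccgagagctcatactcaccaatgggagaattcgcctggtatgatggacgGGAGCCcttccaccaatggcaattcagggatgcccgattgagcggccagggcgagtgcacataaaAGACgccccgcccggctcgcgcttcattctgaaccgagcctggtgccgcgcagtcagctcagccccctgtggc
Id3: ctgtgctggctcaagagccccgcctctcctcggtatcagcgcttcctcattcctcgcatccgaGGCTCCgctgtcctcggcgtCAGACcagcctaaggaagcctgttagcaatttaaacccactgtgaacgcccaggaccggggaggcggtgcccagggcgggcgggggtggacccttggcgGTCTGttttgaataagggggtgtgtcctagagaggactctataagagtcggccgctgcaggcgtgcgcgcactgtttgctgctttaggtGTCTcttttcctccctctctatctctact
Id4: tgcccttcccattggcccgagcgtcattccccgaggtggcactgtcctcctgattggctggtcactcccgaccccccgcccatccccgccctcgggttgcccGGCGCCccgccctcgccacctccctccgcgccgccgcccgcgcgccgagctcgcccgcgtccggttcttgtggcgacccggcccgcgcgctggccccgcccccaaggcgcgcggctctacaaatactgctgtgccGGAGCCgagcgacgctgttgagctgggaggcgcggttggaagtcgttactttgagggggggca

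Id3 held 3 copies of GTCT, 2 of them inside CAGAC or its complement, and 1 of GGAGCC. Id2 held 1 GTCT, 1 GGCGCC and 1 GGAGCC, and Id4 held 1 GGCGCC and 1 GGAGCC with no GTCT. Counted on both strands, GTCT was in 88% of the 32851 RefSeq promoter windows of the same length and CAGAC, which contains its complement, in 49.6%. GGCGCC was in 11.9% and GGAGCC in 30.8%. Of the E-box letters searched, CAGCTG (16.3% of all windows) was in Id2 once and CACCTG (20.2%) in none of the 3. The palindrome GTCTAGAC (0.213%) and GGCGCC followed after 5 bases by GTCT (0.0731%) were in none of the 3 windows. No stimulated peak overlapped these 3 promoter windows, and among all protein-coding genes with an entry 3.14% had one overlapped. The nearest stimulated peak edge was 115 bp from the Id3 window, 2242 bp from that of Id2 and 32741 bp from that of Id4. The bases under the peaks themselves were not analysed here.

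After BMP9/10, SMAD4 peaks within 100 kb were found at 4 of 4 members, and 36.5% of the 21883 protein-coding genes had at least 1. Without ligand it was also 4 of 4, and 13.1% of all genes. A member was the nearest gene of a stimulated peak in 4 of 4 cases (12.2% of all genes) and of an unstimulated peak in 4 of 4 (3.79% of all genes). Id3 had 8 stimulated and 4 unstimulated peaks in its window, of which 6 stimulated and all 4 unstimulated ones were nearest to it. Id1 had 7 stimulated and 4 unstimulated peaks, and 3 of each list were nearest to it. Id2 had 3 stimulated and 2 unstimulated peaks and Id4 had 1 in each list, all nearest to the member.

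**Figure D1:**
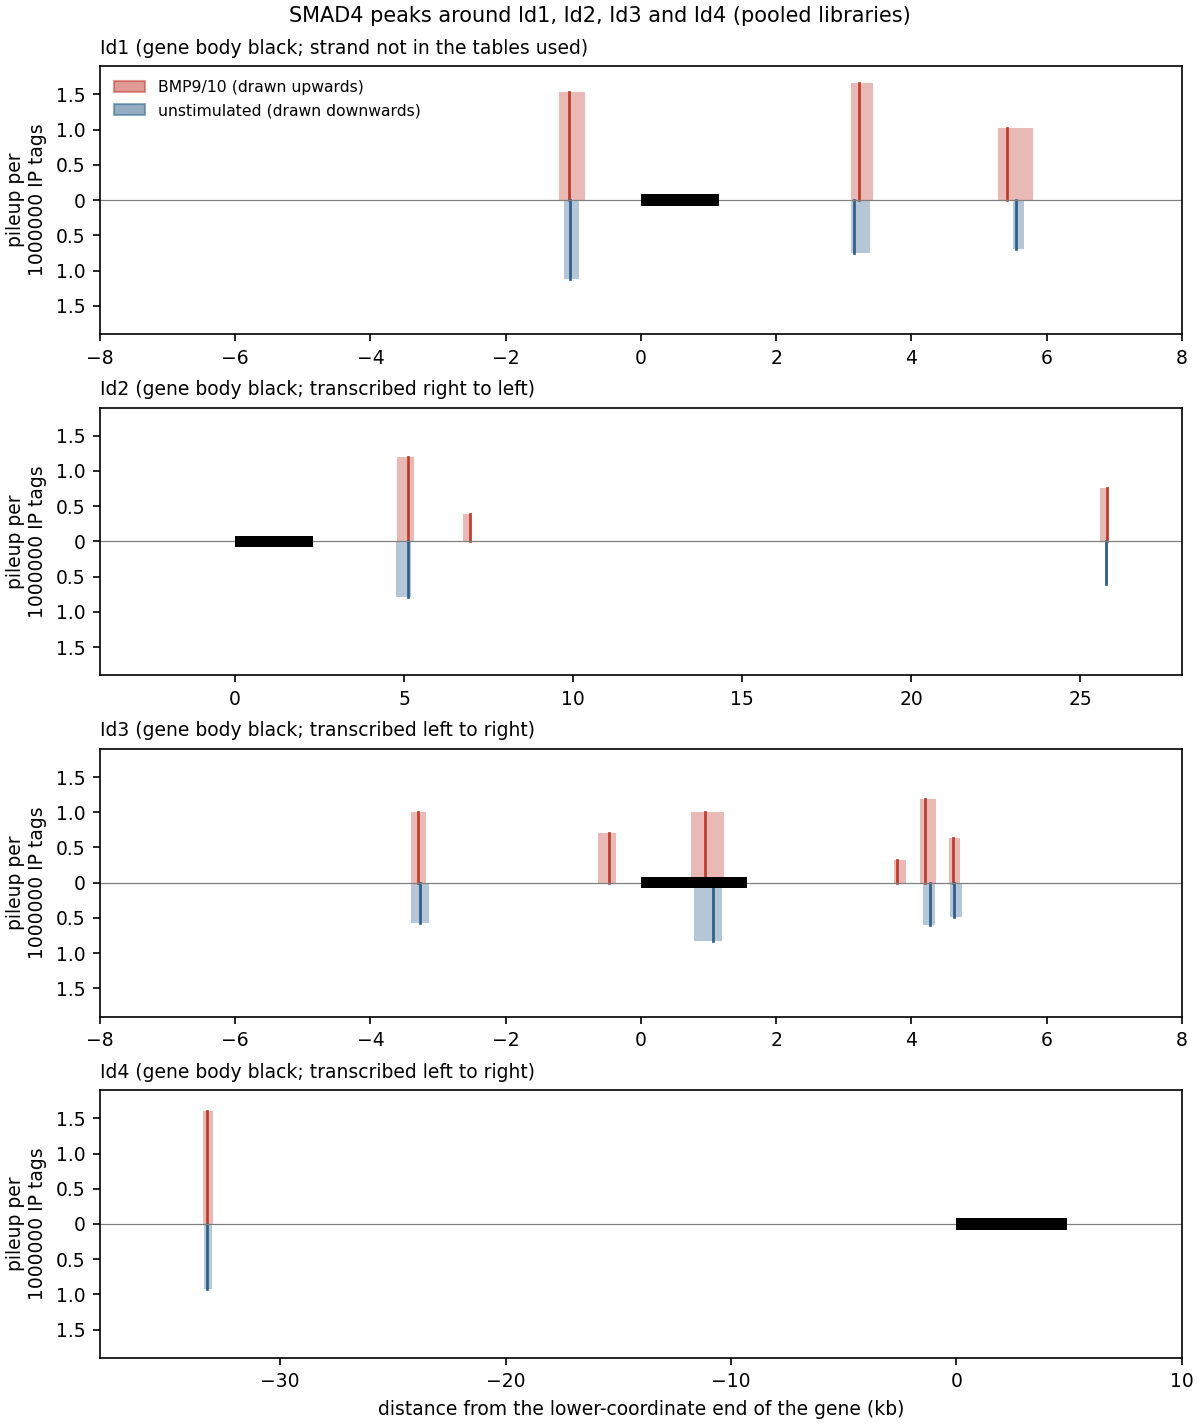
SMAD4 peaks around each Id gene, drawn to scale by distance from the lower-coordinate end of the gene (kb). Boxes span the called peaks, their height is the pileup at the summit per 1000000 IP tags, lines mark summits, BMP9/10 is drawn upwards and unstimulated downwards, and peaks outside the plotted ranges, all nearest to other genes, are left out. Id1 is flanked by peaks with none in its body, the Id2 peaks lie upstream, Id3 has 6 stimulated peaks within 5 kb, and the Id4 peak is 33.2 kb away.

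Peaks clustered tightly at Id1 and Id3. Their bodies span 1.16 and 1.571 kb, and within 5 kb of them lay 3 and 6 stimulated summits and 3 and 4 unstimulated ones. Such a cluster of 3 or more stimulated summits was found at 2 of 4 members, Id1 and Id3, and at 0.745% of all protein-coding genes. For the unstimulated list it was 2 of 4 members and 0.0731% of all genes. Long genes cover more sequence, so the count was repeated over the 5034 genes with a body of at most 5 kb, which include all 4 members. Of these, 0.159% had 3 or more stimulated summits within 5 kb. In the unstimulated list 0.0397% did, and the 2 genes were Id1 and Id3. The 5 kb distance and the number of summits were chosen after the peaks had been seen.

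At Id1 (mm10 chromosome 2, 152736251 to 152737410), a widely used readout of BMP signalling, the gene body held no summit and was flanked on both sides. The site on the lower-coordinate side had its summit 1055 bp from the body after BMP9/10 and 1054 bp from it without ligand. Its pileup, the number of IP tags stacked at the summit with each tag taken as 100 bp long, was 63 in the BMP9/10 list and 59 in the unstimulated list. The scaled pileup, given per 1000000 IP tags of the list to allow for the different depth, was 1.53 after BMP9/10 and 1.11 without ligand. The lists thus differed little in raw tags there, and the unstimulated one was the deeper by 1.29-fold.

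The site on the higher-coordinate side of Id1, 2072 bp from the body, had 68 tags (1.66 when scaled) after BMP9/10 and 40 (0.755 when scaled) without ligand. Its ratio of 2.19 (95% counting interval 1.46 to 3.33) was the highest among the members and above that of 98.8% of all shared pairs. The lower side had 1.38 (0.951 to 2.00). The order of these sites therefore differed between the lists. The higher-coordinate site was the taller after BMP9/10, and the lower-coordinate site was the taller without ligand. Set directly against each other, which needs no scaling for depth, the ratio of the higher site was 1.59 times that of the lower (exact conditional interval 0.909 to 2.80), an interval that includes 1. A further site 4253 bp from the body had a scaled pileup of 1.02 after BMP9/10 and 0.698 without ligand. It was 506 bp wide after BMP9/10 and 156 bp without ligand, the greatest change in width at the members.

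The other peaks in the Id1 window were nearest to other genes. A shared peak 28618 bp from Id1 lay inside H13, which encodes signal peptide peptidase, with a scaled pileup of 1.19 after BMP9/10 and 0.68 without ligand. Inside Bcl2l1, the gene of the survival protein BCL-XL, stimulated peaks lay 68842 and 83768 bp from Id1 with scaled pileups of 0.78 and 0.975. A stimulated peak beside Rem1, a small GTPase gene, lay 99411 bp from Id1 with 0.682. The peaks at Bcl2l1 and Rem1 had no unstimulated counterpart.

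At Id3 (chromosome 4, 136143822 to 136145392, plus strand) peaks lay upstream, inside and downstream of the gene. The farthest upstream site, 3293 bp before the gene and inside the long noncoding RNA gene Gm42329, had 41 tags (0.999 when scaled) after BMP9/10 and 30 (0.566) without ligand, a ratio of 1.76 (1.07 to 2.93). The site inside the gene body was alone among the 13 stimulated peaks nearest to a member in lying within a member. It had 41 tags (0.999 when scaled) after BMP9/10 and 44 (0.831) without ligand, and its ratio of 1.20 (0.766 to 1.88) was the lowest of the members. Its summits in the 2 lists were more than 100 bp apart, so this ratio compares different positions.

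Downstream of Id3 the highest site, 2638 bp past the gene, had 49 tags (1.19 when scaled) after BMP9/10 and 32 (0.604) without ligand. Its ratio was 1.98 (1.24 to 3.19). A site 3051 bp past the gene had 26 tags in each list, which scaled to 0.633 after BMP9/10 and 0.491 without ligand, and a ratio of 1.29 (0.72 to 2.31). These neighbours were 413 bp apart after BMP9/10 and 358 bp apart without ligand. With a further stimulated summit 420 bp before the highest one, the downstream peaks formed a row, and whether they are separate binding sites was not tested. The highest downstream site set against the gene body gave a ratio of ratios of 1.64 (0.849 to 3.19), which shares the limit of the gene-body summits.

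Id2 (chromosome 12, 25093799 to 25096092, minus strand) had all its peaks upstream. The main site, 2835 bp before the gene, was 508 bp wide after BMP9/10 and 448 bp wide without ligand. It had 49 tags (1.19 when scaled) after BMP9/10 and 42 (0.793) without ligand, with a ratio of 1.51 (0.977 to 2.33). Its local background, the tags expected from the input, was 0.0724 per 1000000 tags after BMP9/10 and 0.113 without ligand. Fold enrichment, the authors' ratio of pileup to that background, was 12.6 after BMP9/10 and 6.14 without ligand, so its ratio of 2.05 also holds a lower background. A site 23479 bp upstream had 31 tags (0.755 when scaled) after BMP9/10 and 32 (0.604) without ligand, and a ratio of 1.25 (0.738 to 2.12).

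Id4 (chromosome 13, 48261116 to 48266028, plus strand) had a distant site and no other. Its summit lay 33248 bp upstream after BMP9/10 and 33247 bp upstream without ligand, inside A330033J07Rik, a long noncoding RNA gene whose body also overlaps Id4. It had 66 tags (1.61 when scaled) after BMP9/10 and 49 (0.925) without ligand, with a ratio of 1.74 (1.18 to 2.57). In fold enrichment it ranked 2 of 4333 stimulated and 3 of 1133 unstimulated peaks. In pileup it ranked 113 in the stimulated and 198 in the unstimulated list. Its local background of 0.0535 per 1000000 tags after BMP9/10 was the genome-wide level, the lowest the caller uses, and 0.0566 was found without ligand, so its high fold enrichment stands on a low background as well as on a high pileup. No test ties this peak to Id4 rather than to another gene.

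Over the 11 shared sites, scaled pileup was higher after BMP9/10 at all 11, and raw tags were higher at 8. The ratios ran from 1.20 to 2.19 with a median of 1.51. All 1078 shared pairs of the lists outside mitochondrial DNA had a median of 1.47, with 98.4% above 1, a shift of 0.56 on the log2 scale that covers shared sites in general. Raw tags are equal at a ratio of 1.29, the depth ratio of the lists, and the lower quartile of all shared pairs was also 1.29. The 8 sites with higher raw tags were therefore near the share of all shared pairs. The counting interval lay above 1 at 5 of the 11 member sites (45.5%) and at 36.6% of all shared pairs. Those 5 were the Id1 site at 2072 bp, the Id3 sites 3293 bp before and 2638 bp after the gene, the Id4 site and the peak inside H13. The H13 peak is not nearest to a member. Its summits in the 2 lists were 195 bp apart, more than the 100 bp taken per tag, so its ratio compares different positions.

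Relative to the median of all shared pairs, 6 of the 11 sites lay above and 5 below, from 0.815 inside Id3 to 1.49 at Id1. None of the 11 intervals lay above 1 after that centring, and over all shared pairs 0.464% did. The interval nearest to it was that of the Id1 site, 0.992 to 2.26. Among the 13 comparisons of shared sites within a member's window, 0 gave an interval that excluded 1. Local background had a median ratio of 0.925 at the member sites and 1.00 at all pairs. It was lower after BMP9/10 at 7 of the 11 sites, and its part in the fold enrichments was not tested.

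**Figure D2:**
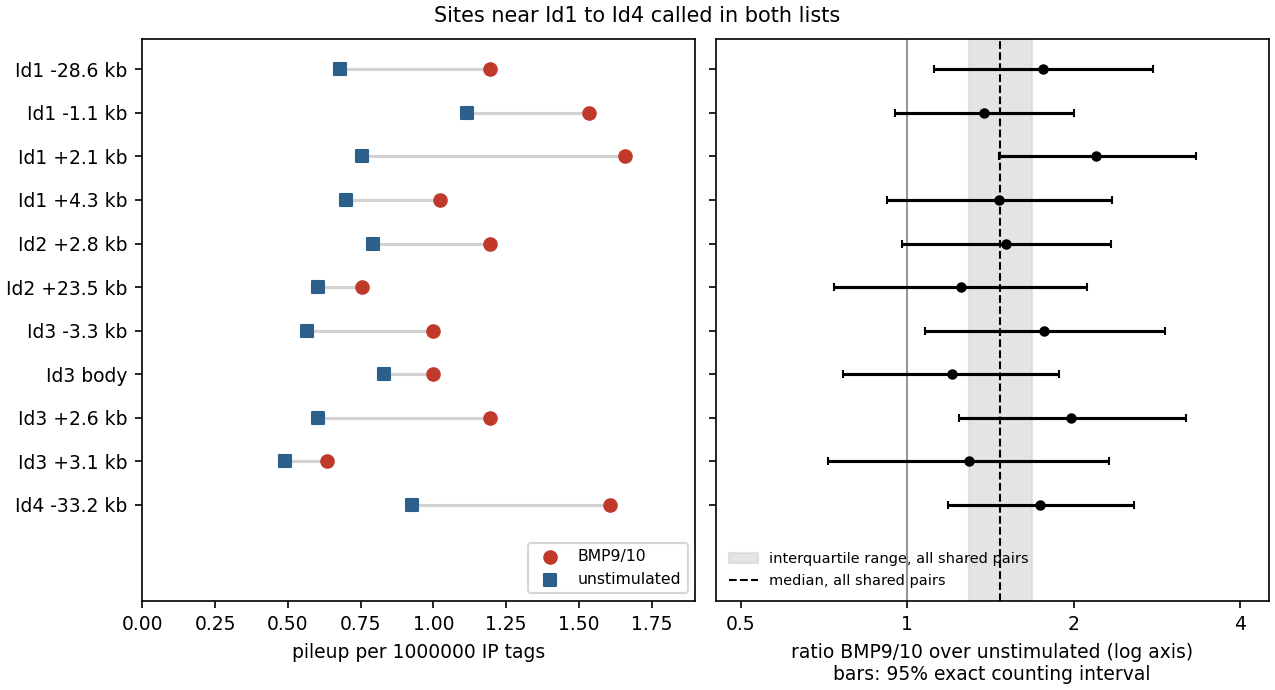
Pileup per 1000000 IP tags (left) and its ratio, BMP9/10 over unstimulated, on a log axis (right) at the 11 sites near Id genes called in both lists. Points are single pooled values and bars are 95% exact counting intervals. The point after BMP9/10 is the higher at all 11 sites, and the intervals overlap the dashed line at 1.47, the median of all shared pairs.

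**Figure D3:**
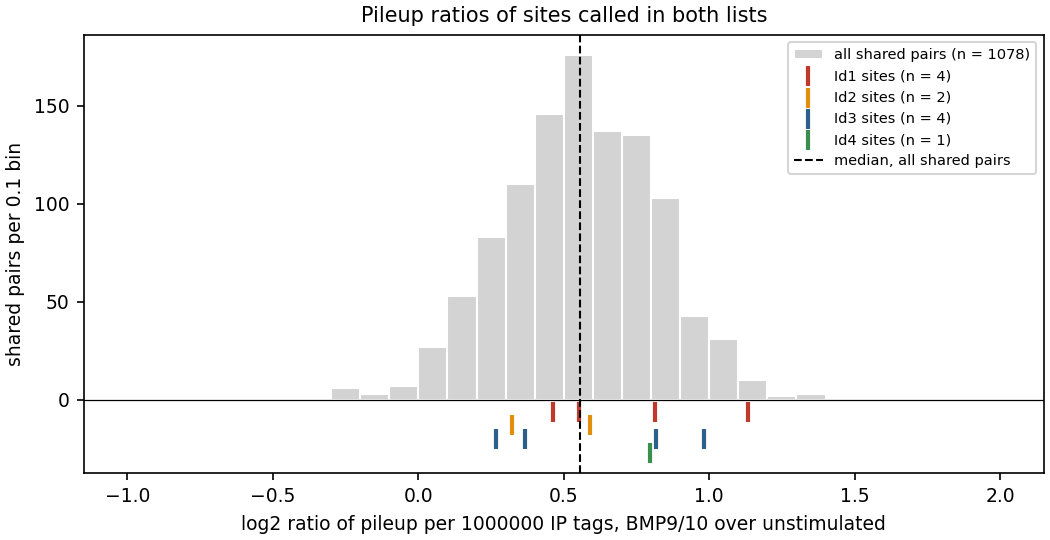
Histogram of the log2 ratio of pileup per 1000000 IP tags, BMP9/10 over unstimulated, over 1078 shared pairs, with the sites of each Id gene as ticks under it. The ticks spread on both sides of the dashed median at 0.56, with an Id1 site highest.

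Summits of the shared sites were 1 to 195 bp apart between the lists with a median of 35 bp, against a median of 31 bp over all shared pairs. They were within 100 bp at 8 of 11 sites (91.4% of all pairs). The exceptions were the peak inside H13, the Id3 gene body and the Id1 site 4253 bp away. At each of these the ratio compares different positions. At the Id4 site and at the lower-coordinate Id1 site the summits were 1 bp apart. Peaks were wider after BMP9/10 at 9 of 11 sites (92% of all pairs), with a median width ratio of 1.17 at the members and 1.58 over all pairs. The exceptions were the Id3 sites 3293 bp before the gene (228 bp after BMP9/10, 260 bp without ligand) and 3051 bp after it (166 bp after BMP9/10, 184 bp without ligand).

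Of the 19 stimulated peaks near members, 8 (42.1%) had no unstimulated counterpart, against 75.1% of the whole stimulated list. All 11 unstimulated peaks had a stimulated counterpart, as did 95.9% of the whole unstimulated list. The peaks called after BMP9/10 alone and nearest to a member were 3. The highest lay 474 bp before the start of Id3, with 29 tags, a scaled pileup of 0.707 and a fold enrichment of 5. The others were 4642 bp upstream of Id2 (16 tags, 0.39 when scaled) and 2218 bp downstream of Id3 (13 tags, 0.317 when scaled). These 2 stood among the lowest of the list in pileup, with 3.12% and 0.369% of stimulated peaks below them. Their fold enrichments were 4.25 and 4.09, against a median of 4.56 over all stimulated peaks. The remaining 5 were the peaks at Rem1 and Bcl2l1 and, inside E2f2, a cell cycle factor gene, peaks 32090 and 40177 bp from Id3 with scaled pileups of 0.439 and 0.512.

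A peak that was not called is not a site at 0, because the unstimulated coverage below the threshold was not analysed here. The lowest −log10 p in the authors' deposited table of unstimulated peaks, 6.03, gives the pileup needed for a call there if the local background per tag was the same as after BMP9/10. Before Id3 that was 22 tags or 0.415 when scaled, and the stimulated pileup was 1.70 times that level. Upstream of Id2 it was 0.302 (1.29 times) and downstream of Id3 0.283 (1.12 times). The assumed equal background was not checked at these peaks. A higher one without ligand would raise the needed level. At the shared Id2 site 2835 bp from the gene, scaled background was 0.0724 after BMP9/10 and 0.113 without ligand. Downstream of Id3 it was 0.0609 after BMP9/10 and 0.0944 without ligand at 3051 bp, but 0.0731 and 0.0691 at 2638 bp. Whether the Id2 and Id3 peaks would exceed such a raised level was not tested. Over the 8 peaks the multiple ran from 1.03, at the nearer Bcl2l1 peak, to 1.78, at the farther one. The nearer Bcl2l1 peak had a fold enrichment of 2.36, which ranked 4297 of 4333 stimulated peaks. All 3245 stimulated peaks without a counterpart outside mitochondrial DNA had a median multiple of 1.47. The needed level was reached by 100% of them, so reaching it does not set these 8 apart.

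**Figure D4:**
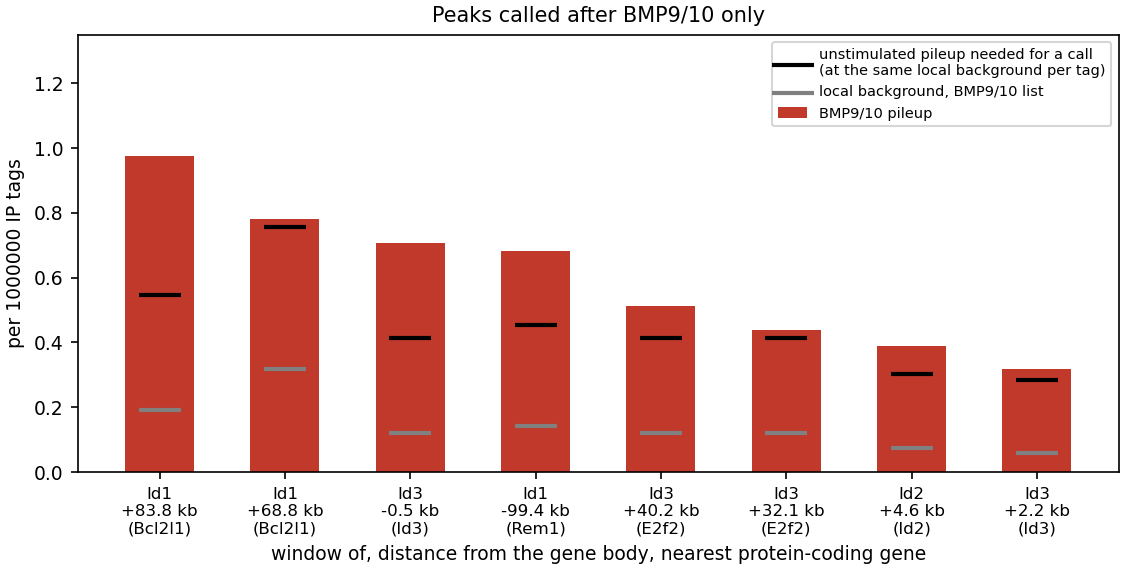
Pileup per 1000000 IP tags (bars) of the 8 peaks in the Id windows called after BMP9/10 alone, with the local background of the BMP9/10 list (grey) and the unstimulated pileup that a call would have needed at that background (black). The peak before Id3 reaches 0.707 against a needed 0.415, and the nearer Bcl2l1 peak reaches 0.78 against 0.755.

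A fixed list gave the other genes of the pathway, and it was not tested. Of 18 other BMP-SMAD target genes, 13 had a stimulated peak within 100 kb (36.5% of all protein-coding genes) and 6 an unstimulated one (13.1%). The highest scaled stimulated pileups were at Atoh8, a bHLH factor gene (1.41, in the gene body), Smad6, an inhibitory SMAD gene (1.36, 8.27 kb away), and Eng, the gene of the BMP9/10 co-receptor endoglin (1.34, in the gene body). Smad9, Hey2, Nog, Msx2 and Bambi had none in either list. The 21 shared sites of this list had ratios from 0.956 to 2.02 with a median of 1.48, beside 1.47 over all shared pairs. The interval lay above 1 at 7 of them, near the share of all shared pairs (36.6%).

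The inhibitory SMAD genes Smad6 and Smad7 and the ubiquitin ligase gene Smurf1 are also among the 18 genes. They had 9 shared sites, 7 at Smad6, 2 at Smad7 and 0 at Smurf1. The median ratio was 1.56, beside 1.47 over all shared pairs. The interval lay above 1 at 3 of the 9 sites, near the share of all shared pairs (36.6%). Smad7 had 5 stimulated and 2 unstimulated summits within 5 kb and Smad6 had 2 of each. Hes1, a Notch and BMP target with a body of 2440 bp, had 6 stimulated and 1 unstimulated summit, and Id3 had 6 stimulated and 4 unstimulated ones. The differences between these genes and the Id genes were not tested.

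Among binding partners of ID proteins and related bHLH genes, 4 of 6 had a stimulated peak within 100 kb (36.5% of all protein-coding genes) and 2 of 6 an unstimulated one (13.1%). Tcf4, which encodes the E protein E2-2 and has a long body of 344539 bp, had 5 stimulated and 0 unstimulated peaks. Its highest scaled pileup was 0.731, with a fold enrichment of 2.38 against a median of 4.56 over all stimulated peaks. Tal1, the gene of a haematopoietic and endothelial bHLH factor, had 2 in each list, and its highest stimulated pileup, a scaled 1.73 at 3.70 kb from the gene, was above that of all the Id peaks. Lyl1, a close relative of Tal1, had 2 stimulated peaks and 1 unstimulated peak, which was nearest to another gene. Lmo2, which encodes a bridging protein of these complexes, had 2 stimulated and 0 unstimulated ones, the highest 87.6 kb away. Tcf3 and Tcf12, the other E protein genes, had none in either list.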

How the data were processed

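Each condition had 1 deposited list of narrow peaks, which the authors made with MACS2 (2.1.0.20140616) from merged IP against merged input libraries. Per the file headers, the q cutoff was 0.01, with at most 1 tag per position and an extension setting of 100 bp. Tag size was 140 bp in the stimulated and 146 bp in the unstimulated list, longer than that setting. The band width setting was 200 for the stimulated and 300 for the unstimulated list, per the file headers. The build is mm10, per the submitters' processing notes, which also name HOMER. No aligner is named in them. Deposited pileup is a coverage signal, not scaled to depth, and was scaled here to 1000000 IP tags. Fold enrichment, as deposited, is a ratio with 1 added to both pileup and local background, from which the background was recovered. Deposited −log10 p and −log10 q values compare IP with input. Positions and widths are in bp, 1-based.

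An overlap of 1 bp or more made peaks shared, and the closest summits were paired with each peak used once. Ratios carry exact binomial 95% intervals on the 2 pileups, and ratios of ratios exact conditional intervals. All of them cover only the counting error of pooled libraries, and tags carry no molecular identifiers. The code was checked on simulated data. Python 3.11.15 and SciPy 1.17.1 were used. Distances are to RefSeq gene bodies (GRCm38.p6). The gene table gives no strand, which was read from the promoter table for Id2, Id3 and Id4. All peaks in the windows were accounted for, but not every value of each peak is given. Members, gene lists and comparisons were chosen with earlier results of these data known. Comparisons within loci, pileups needed for a call and counts within 5 kb were added after the peaks were seen. Peaks on mitochondrial DNA entered no comparison of pairs.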

Additional observations from a re-analysis of the deposited data

How the results depend on the processing

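The count of 19 stimulated peaks near members fell to 11 with summits within 10 kb, to 10 with a −log10 q of at least 10 and to 9 with the stimulated list cut by −log10 q to 1133 peaks. Those 9 were 3 of Id1, 1 of Id2, 4 of Id3 and 1 of Id4, and all had an unstimulated counterpart. The share of all 1133 kept peaks with a counterpart is not given here, so this count does not set the members apart. The 11 unstimulated peaks became 6 with a −log10 q of at least 10. The members' shared sites were 9 when the overlap had to cover 50% of both peaks and 8 with summits within 100 bp. The median ratio of 1.51 was 1.65 with local background subtracted, 1.71 from fold enrichments and 1.44 per 1000000 input tags. Over all shared pairs these medians were 1.61, 1.4 and 1.41. Above them lay 6, 9 and 6 of the 11 member sites, and the difference in fold enrichment was not tested. Centring on all shared pairs, which divides by their median, gave 1.02, and the 5 sites with an interval above 1 became 0. From fold enrichments the Id2 site 23.5 kb away had 0.97 in place of 1.25. No site past its counting interval turned its direction. No paired analysis was possible because only the pooled list of each condition was analysed here, and for the same reason no replicate was left out. A pileup of 13 to 68 tags per site limits what can be told apart: the narrowest interval at a shared member site still spanned 0.951 to 2.00.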

Other observations

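Beside Id1 and Id3, genes with a body of at most 5 kb and 3 or more stimulated summits within 5 kb included Dusp6, an ERK phosphatase gene, Hes1, Junb, which encodes an AP-1 subunit, Ppcs and Tmem253. None of these named genes other than Id1 and Id3 had 3 or more unstimulated summits there. Over genes of any length, 4 or more unstimulated summits within 5 kb were found at Id3, Atp6ap2, Myct1 and Zmiz1. The 10 genes with 6 or more stimulated summits were Id3, Hes1, Atp6ap2, Ctif, Cux1, Frmd4a, Gse1, Itgb3, Pde4d and Septin9. These genes were named after their values were seen, no difference among them was tested, and a summit near overlapping genes counts for each of them.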
